A study of Mus musculus with 16 samples.

Results

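The aryl hydrocarbon receptor (AhR), its binding partner and the genes it is best known to induce were followed as 9 genes, chosen by symbol: Ahr, Arnt, Ahrr, Tiparp, Cyp1a1, Cyp1a2, Cyp1b1, Nqo1 and Ugt1a6a. All 9 were rows of the cortical bone table, which lists 38933 genes. In the skeletal muscle table, which lists 21011 genes, 7 of the 9 were present, and Ahrr and Cyp1a2 had no row there. The 2 tables together hold 39418 gene identifiers.

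Bulk RNA-seq covered 16 libraries, 8 from cortical bone shafts and 8 from tibialis anterior (TA) muscle, with 4 mice per group. All mice were female C57BL/6 animals, 18 months old when treatment began. The BAY groups received BAY2416964, an AhR antagonist given at 30 mg/kg by oral gavage for 8 weeks, with 5 doses per week, and the VEH groups received its vehicle. There was no genetic change in any group, and no group received an AhR agonist, so every BAY value is set against the activity that the pathway had in vehicle-treated aged mice. Bone shafts had been emptied of marrow stromal cells and digested with collagenase before RNA extraction, and their RNA was isolated with TRIzol, whereas RNA of whole TA muscle was extracted with a Maxwell kit.

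AhR is a transcription factor that waits in the cytoplasm in a complex with the HSP90 chaperone. When a ligand such as dioxin or the tryptophan metabolite kynurenine binds, AhR moves to the nucleus, pairs with ARNT and binds DNA at a short response element. The cytochromes P450 encoded by Cyp1a1, Cyp1a2 and Cyp1b1 oxidize aromatic compounds, Nqo1 encodes a quinone reductase, Ugt1a6a encodes a glucuronosyltransferase, and the AhR repressor (Ahrr) and the ADP-ribosyltransferase TIPARP act back on the receptor to limit its activity.

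The genes differ in how many response element cores lie ahead of them, which is shown here because Cyp1a1 is the gene on which the muscle result turns. The core GCGTG was counted on both strands, where the other strand reads CACGC, in the 1500 bases before the canonical transcript start of each gene in GRCm39 (mm39) with GENCODE M39. Cyp1a1 and Cyp1b1 each held 10 cores, a number reached by 0.205% of 20516 protein-coding promoters. Ahrr held 6 (2.00% of promoters held as many), Tiparp 4 (9.30%) and Cyp1a2 2 (35.5%). Nqo1 and Ugt1a6a held 1 each, as many as the median promoter, and 63.6% of promoters held at least 1. Ahr and Arnt held none in this window. The core contains the pair CG, and these shares do not allow for how many CG pairs a promoter has. Cyp1a1 held 40 such pairs and Cyp1b1 70, beside a median of 24 over the promoters. A match of these letters is a description of the sequence and not a measured binding site.

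The windows of 300 bases with the most cores follow for 3 of the genes with many cores, Cyp1a1, Cyp1b1 and Tiparp. They are written 5′ to 3′ on the strand of the gene with every core in capitals. Where windows tied, the one with its cores closest together is printed. Ahrr, which also held many cores, is not printed. The Cyp1a1 window lies at chr9:57603452-57603751 on the plus strand, 690 to 391 bases ahead of the start, and holds 5 cores. The Cyp1b1 window lies at chr17:80023079-80023378 on the minus strand, 846 to 547 bases ahead of the start, and also holds 5 cores, of which a pair on opposite strands overlap in CACGCGTG. The Tiparp window lies at chr3:65435001-65435300 on the plus strand, 319 to 20 bases ahead of the start, and holds 3.
Cyp1a1: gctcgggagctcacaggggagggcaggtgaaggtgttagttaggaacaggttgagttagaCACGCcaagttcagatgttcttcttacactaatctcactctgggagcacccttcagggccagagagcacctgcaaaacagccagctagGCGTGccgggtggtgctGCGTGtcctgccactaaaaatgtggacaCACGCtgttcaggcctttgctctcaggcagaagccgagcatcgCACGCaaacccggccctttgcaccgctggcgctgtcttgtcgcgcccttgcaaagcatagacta
Cyp1b1: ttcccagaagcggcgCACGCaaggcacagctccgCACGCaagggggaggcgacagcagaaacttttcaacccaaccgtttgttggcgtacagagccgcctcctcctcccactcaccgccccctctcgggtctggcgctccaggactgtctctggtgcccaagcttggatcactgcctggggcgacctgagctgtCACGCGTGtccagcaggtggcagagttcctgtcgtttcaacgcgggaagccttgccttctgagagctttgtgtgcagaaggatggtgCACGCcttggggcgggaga
Tiparp: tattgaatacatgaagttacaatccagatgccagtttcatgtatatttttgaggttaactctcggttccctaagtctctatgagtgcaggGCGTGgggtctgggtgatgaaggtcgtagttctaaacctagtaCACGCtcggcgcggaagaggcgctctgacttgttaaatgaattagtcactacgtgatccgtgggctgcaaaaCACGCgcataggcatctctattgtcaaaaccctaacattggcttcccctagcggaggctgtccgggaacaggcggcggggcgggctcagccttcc

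**Figure D1:**
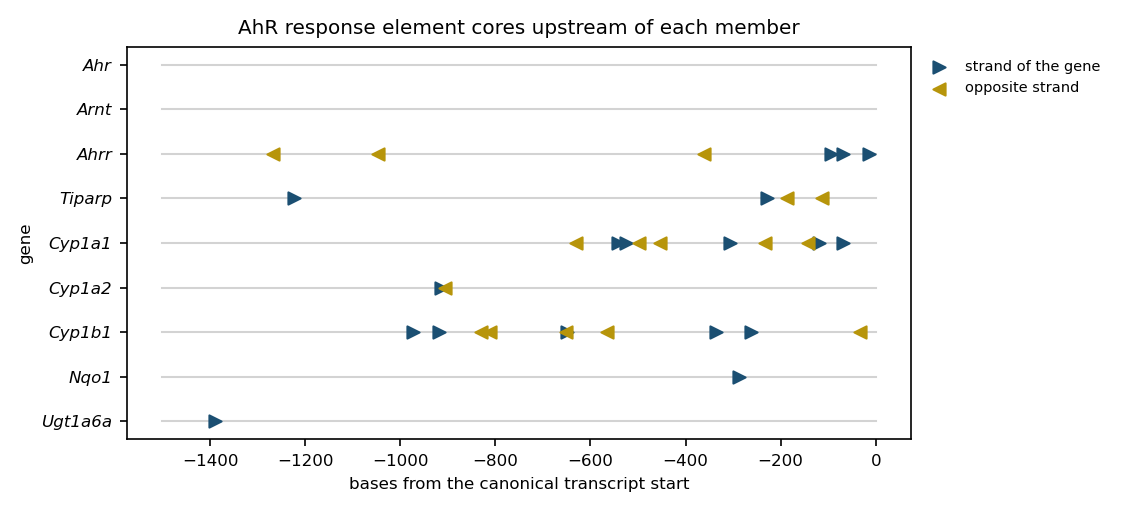
Positions of AhR response element cores in the 1500 bases upstream of the canonical start of each gene (x axis, bases from the start), with right-pointing triangles for cores on the strand of the gene and left-pointing triangles for cores on the other strand. Cyp1a1 and Cyp1b1 carry 10 each, and the lines of Ahr and Arnt are empty.

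Read depth set what could be seen in each tissue. Values were deposited as log2 of CPM, counts rescaled so that all libraries have an equal sum, after a small offset was added, and the size of 1 read was recovered from the steps between low values. Muscle libraries held 6131919 to 9262358 reads on genes, so that 3 reads corresponded to 0.324 to 0.489 CPM. Bone libraries were shallower and less even, at 930307 to 6951919 reads, with 3 reads at 0.432 to 3.22 CPM. Genes of olfactory receptors, which neither tissue is known to use, were also read in bone, at 0.132 CPM per kb of exon in VEH replicate 1 and 1.40 to 9.06 CPM per kb in the other 7 libraries. In muscle, the 43 olfactory receptor genes that had a row were at 0.139 to 0.194 CPM per kb. The summed level of 6 muscle fibre genes in bone ranged from 21.8 to 6478 CPM in VEH and from 56.8 to 31519 CPM in BAY, and that of 8 osteoblast and osteocyte genes from 972 to 21810 CPM in VEH and from 1115 to 15567 CPM in BAY. Intervals and floors from reads cover counting error only and not the spread between mice. Copies made by PCR are not independent molecules, so the counting error itself may be larger than given.

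In skeletal muscle, Cyp1a1 fell in the mice given BAY, and it was the only one of the 7 measured genes to pass the test. Calls required an unadjusted P below 0.05 in limma together with a 2-fold change or more, and 2.43% of all genes in the muscle table were called, 1.09% as lower in BAY. The 7 genes had a median BAY minus VEH difference of -0.15 on the log2 scale, beside 0.06 over all genes of the table, with 3 higher and 4 lower, and Arnt turned lower when libraries were centred on their median gene.

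Cyp1a1 (chr9:57595211-57611107, plus strand), whose product is the monooxygenase most widely used as a readout of AhR activity, was rare in muscle. In VEH replicates 1 to 4 it stood at 1.05, 1.67, 1.08 and 1.19 CPM, from 9, 12, 10 and 10 reads. In BAY replicates 1 to 4 it stood at 0.550, 0.489, 0.645 and 0.280 CPM, from 4, 3, 5 and 2 reads. Every BAY-treated mouse was therefore below every VEH-treated mouse, a separation in the lower direction that 1.53% of all muscle genes also showed. The group means were 1.25 ± 0.290 CPM in VEH and 0.491 ± 0.154 CPM in BAY (SD, n = 4 each).

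The limma difference for Cyp1a1 in muscle was -1.38 on the deposited log2 scale (SE 0.56, 95% interval -2.59 to -0.17), with an unadjusted P = 0.0279 and a Benjamini-Hochberg adjusted P = 0.455 over all genes. It therefore passed the threshold of the study and failed the correction for the number of genes. An exact permutation test over the 8 muscle libraries, two-sided, gave P = 0.0286 for Cyp1a1, the smallest value that 4 against 4 allows. Summed over libraries, 41 reads in VEH and 14 in BAY gave a ratio of 0.403 with an exact 95% counting interval of 0.203 to 0.755. Per kb of exon, Cyp1a1 was 1.70 to 2.60 times the olfactory receptor level of the same muscle library in VEH and 0.505 to 0.853 times in BAY, so its values lay near that level, which comes from the receptor genes that passed into the table. The spread between mice of a group was no wider than counting alone gives, at 0.520 times the Poisson expectation in VEH and 0.354 times in BAY. With 1 CPM added in place of the small offset, the difference shrank to -0.59 (unadjusted P = 0.00772 by limma) and no longer reached a fold change of 2, as the added value is close to the level of the gene. The call was also lost in limma without VEH replicate 2 (-1.23, unadjusted P = 0.0796) and without VEH replicate 4 (-1.40, unadjusted P = 0.0518). Voom on the recovered reads called Cyp1a1 as well (-1.22, unadjusted P = 0.0217), and 3.33% of all muscle genes were called by that fit.

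**Figure D2:**
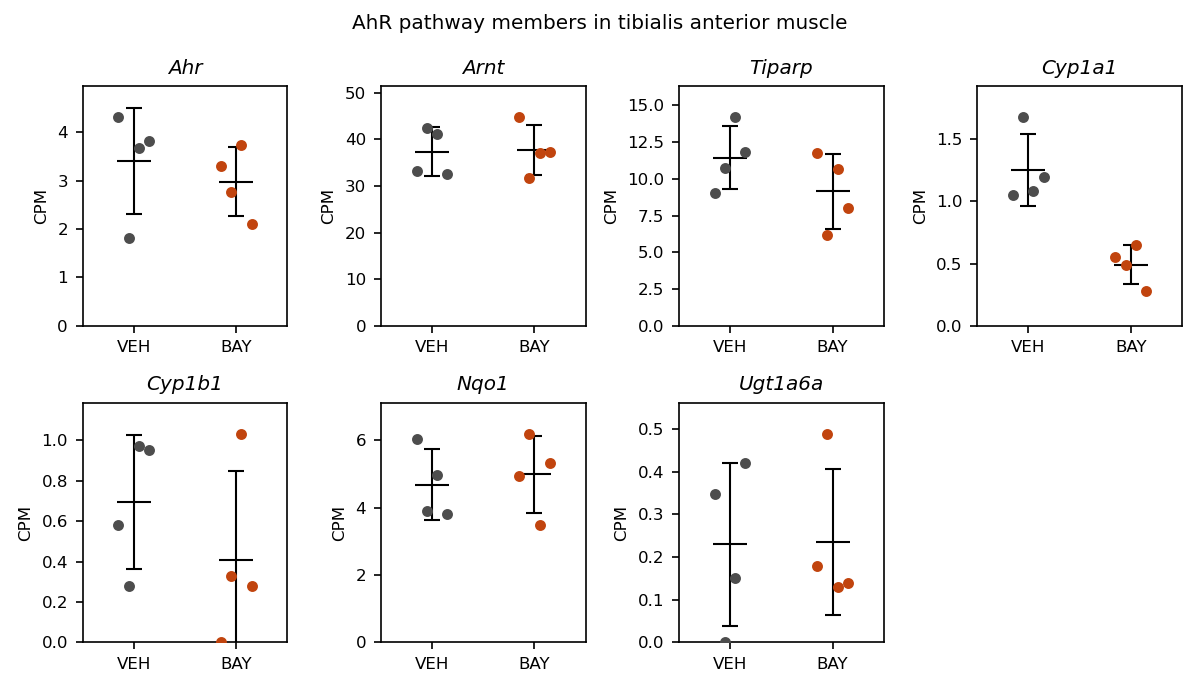
CPM (y axis, each panel with its own scale from 0) of the 7 measured genes in TA muscle, 1 point per mouse, with the horizontal bar at the mean and whiskers of 1 SD (n = 4 per group, cut at 0). The 4 BAY points of Cyp1a1 lie at 0.280 to 0.645 CPM, below the 4 VEH points at 1.05 to 1.67 CPM, and the groups overlap in the other 6 panels.

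Markers of other cell types were checked beside this result, since in bulk tissue fewer cells of a type and less RNA per cell cannot be told apart. Endothelial cells are a known site of Cyp1a1 expression, and the summed level of 6 endothelial genes was 169 to 196 CPM in VEH and 177 to 220 CPM in BAY, with overlapping groups. None of the 6 was called, with 4 higher and 2 lower in BAY. Of the higher ones, 1 had an unadjusted P below 0.05 by limma and was short of a 2-fold change. Cdh5 was at 67.9 ± 2.35 CPM in VEH and 84.6 ± 11.9 CPM in BAY, and Kdr at 49.8 ± 5.95 CPM in VEH and 42.1 ± 3.12 CPM in BAY (SD, n = 4 each). VEH replicate 3, the library whose column carried a word for replacement, stood apart in adipocyte genes, with a sum of 197 CPM over 5 genes as compared with 1.93 to 9.31 CPM in the other 7 libraries. Its fibroblast sum, also over 5 genes, was 202 CPM, and the others had 52.5 to 79.3 CPM. Of these 10 genes Plin1, which coats lipid droplets, and Dpt, a matrix protein, were called lower in BAY, and none of the 10 was called without that library. Cyp1a1 was as low in BAY relative to the remaining VEH mice when that library was left out (-1.44, unadjusted P = 0.0387 by limma). Alb, the hepatocyte gene for albumin and the only one of 5 hepatocyte genes with a row, stood at 1.63, 0.279, 0 and 0.477 CPM in VEH and at 0 in all BAY libraries, and it was called lower in BAY too. In VEH replicate 3 Alb was at 0 and Cyp1a1 at 1.08 CPM. The part of RNA from these other cell types in the Cyp1a1 difference was not tested.

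The receptor itself and its partner were read in every muscle library and were not called. Ahr (chr12:35547973-35585057, minus strand) measured 4.31, 1.81, 3.67 and 3.82 CPM in VEH and 3.30, 2.77, 3.74 and 2.10 CPM in BAY, from 13 to 37 reads per library. The Ahr values of the 2 groups were interleaved. The difference was -0.15 with a 95% interval of -0.86 to 0.55 (adjusted P = 0.898 by limma). Arnt (chr3:95341365-95404551, plus strand), which also pairs with the hypoxia-inducible factors, was the best measured of the 7, with 194 to 381 reads per library. It measured 33.3, 42.5, 41.1 and 32.6 CPM in VEH and 44.7, 31.6, 37.2 and 37.3 CPM in BAY. Its difference was 0.01 with a 95% interval of -0.29 to 0.32, the narrowest among the 7 genes.

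Tiparp (chr3:65435320-65463365, plus strand), the negative regulator that adds ADP-ribose to AhR, had the next lowest unadjusted P value in muscle after Cyp1a1. It measured 9.06, 10.7, 14.2 and 11.8 CPM in VEH and 11.8, 6.17, 10.7 and 7.99 CPM in BAY. Both of the lowest values belonged to BAY-treated mice, but the groups overlapped. The limma difference was -0.35 (95% interval -0.82 to 0.12, unadjusted P = 0.135, adjusted P = 0.630), and the exact permutation test gave P = 0.171. With 1 mouse left out it ran from -0.48, without BAY replicate 1, to -0.17, without BAY replicate 2. The pooled reads gave a ratio of 0.807 with a counting interval of 0.687 to 0.946, but mice of a group differed by 3.57 times the Poisson expectation in VEH and 4.72 times in BAY, so that interval is narrower than the spread between mice.

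The other enzymes did not pass the test in muscle. Nqo1 (chr8:108113835-108129934, minus strand), which is also driven by the oxidative stress factor NRF2, measured 6.05, 3.90, 4.97 and 3.82 CPM in VEH and 4.95, 6.20, 3.48 and 5.33 CPM in BAY. Its difference was 0.09 (95% interval -0.45 to 0.62). Cyp1b1 (chr17:80008966-80022532, minus strand) was near the limit of detection, with 5, 2, 9 and 8 reads in VEH and 0, 2, 8 and 2 reads in BAY. The pooled ratio for Cyp1b1 was 0.591 with a counting interval of 0.269 to 1.23, an interval that holds both no change and the ratio of Cyp1a1. Ugt1a6a (chr1:88062222-88147724, plus strand) had at most 3.52 reads in any muscle library, and no difference was detectable at this depth. Because 1 library of each of these last genes was listed at 0, their deposited log2 differences of -2.99 and 1.88 depended on the offset, and became -0.29 and 0.01 with 1 CPM added.

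**Figure D3:**
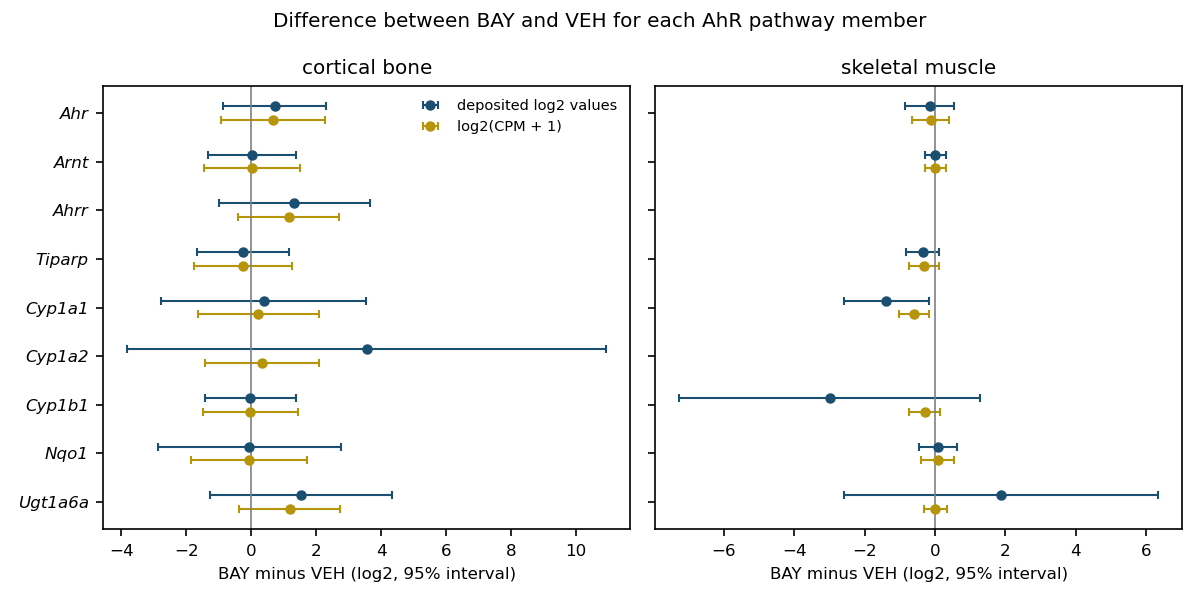
BAY minus VEH difference (x axis, log2) of each gene in cortical bone and skeletal muscle from limma, with 95% intervals, on the deposited log2 values and on log2(CPM + 1), n = 4 mice per group. Among the intervals drawn, those of Cyp1a1 in muscle alone lie wholly below 0, and the wide intervals of Cyp1a2 in bone and of Cyp1b1 and Ugt1a6a in muscle on the deposited scale narrow when 1 CPM is added.

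In cortical bone, none of the 9 genes was called, where 0.64% of all genes in the table were. None had an unadjusted P value below 0.05 in limma, and their adjusted P values were 0.887 or higher. The mean log2 value was higher in BAY for 6 genes and lower for 3, although Ahr, Arnt and Cyp1a1 turned lower when each library was centred on its median gene. The mean CPM was lower in BAY for Cyp1a1 and Cyp1a2 as well, at 7.33 in VEH and 5.83 in BAY for Cyp1a1 and at 4.30 and 3.52 for Cyp1a2. The median difference of the 9 genes was 0.38 on the log2 scale as compared with 0.84 over all genes. Of the 249 genes called in bone, 212 were higher and 37 lower in BAY, and with that centring 295 were higher and 148 lower. The groups overlapped for every one of the 9, beside 0.406% of all bone genes with no overlap. The study's methods name voom, and voom weights on the recovered reads called 2 of the 9 higher in BAY, Ahrr (2.09, unadjusted P = 0.0459) and Ugt1a6a (2.62, unadjusted P = 0.0294), both with an adjusted P = 0.731, where 3.68% of all genes were called by that fit. Of those 1433 genes, 1431 were higher and 2 lower in BAY, and the median difference over all genes was 1.03. Markers of other cell types were uneven between the bone groups. All 6 muscle fibre genes had a higher mean log2 value in BAY (median 3.56), and all 8 osteoblast and osteocyte genes (median -1.19) and all 7 blood and marrow genes (median -1.05) a lower one, beside 0.84 over all genes. None of these genes was called on the deposited values, but with 1 CPM added limma called all 6 muscle fibre genes higher, with Myh4, a fast myosin, at 4.21 (unadjusted P = 6.9e-07), and 3 bone genes lower, Col1a1 (-1.37), Dmp1 (-1.44) and Sost (-1.62), where 0.501% of all genes were called. The muscle fibre sum was 28342 CPM in BAY replicate 1 and 31519 CPM in BAY replicate 2, the highest of the 8 libraries. It was 56.8 CPM in BAY replicate 4 and 6478 CPM in VEH replicate 1, so the groups overlapped. Myh4 stood at 509 ± 972 CPM in VEH and 6970 ± 7779 CPM in BAY (SD, n = 4 each). Its P value does not rest on this spread alone, since limma draws the spread of each gene toward that of genes of like level. The bone cell sum overlapped too, at 972 CPM in VEH replicate 2 and 15567 CPM in BAY replicate 3. The part of this unevenness in the bone results was not tested.

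Cyp1a1 in bone was not separated by treatment. It measured 0.719, 23.9, 2.48 and 2.18 CPM in VEH, from 5, 26, 7 and 3 reads. In BAY it measured 7.60, 2.90, 1.02 and 11.8 CPM, from 17, 7, 2 and 11 reads. In each group the highest value was more than 10 times the lowest, and the highest of all belonged to a VEH-treated mouse. The difference was 0.38 with a 95% interval of -2.77 to 3.52 (adjusted P = 0.974 by limma), which includes the size of the fall in muscle. Leaving out VEH replicate 2 moved it to 1.36, and it was not called then either.

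Whether the effect of BAY on each gene differed between tissues was tested as an interaction in limma on log2(CPM + 1), over the 20526 genes in both tables, of which 0.848% were called. The muscle effect minus the bone effect was -0.81 for Cyp1a1 (SE 0.93, unadjusted P = 0.396), and none of the 7 genes passed or had an unadjusted P below 0.05. For Ahr the difference of effects was -0.78 (SE 0.70), and for Ugt1a6a it was -1.17 (SE 1.16). Adjusted P values were 1.00 for all 7. With 0.1 CPM added in place of 1, the difference of effects was -1.56 for Cyp1a1 (SE 1.29, unadjusted P = 0.238), and for Cyp1b1 it was -0.97 (SE 1.01) as compared with -0.26 (SE 0.73), so the size of these values depended on the added amount. Without bone VEH replicate 2, the mouse with 26 Cyp1a1 reads, the Cyp1a1 difference was -1.61 (unadjusted P = 0.0349, adjusted P = 0.511), and that fit alone called a member. It also called 1693 of the 20526 genes, as compared with 174 with all libraries.

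The level of several of these genes in bone followed the level of silent genes in the same library. Ahrr (chr13:74359237-74440462, minus strand) measured 1.58, 71.8, 11.3 and 42.2 CPM in VEH and 48.7, 23.6, 17.3 and 109 CPM in BAY. Divided by exon length, these values were 0.685 to 1.67 times the olfactory receptor level of the same library in all 8 mice. The libraries with the highest and lowest Ahrr were thus those with the highest and lowest olfactory receptor level. Ugt1a6a measured 0.575, 109, 18.7 and 59.0 CPM in VEH and 45.1, 29.8, 34.6 and 105 CPM in BAY, which was 0.778 to 2.60 times the olfactory receptor level. It shares 56.6% of its exon bases with 8 other Ugt1a genes on the same strand, and reads on the shared exons cannot be assigned to 1 gene with certainty. Cyp1a2 (chr9:57584196-57590986, minus strand), a liver enzyme, had 0, 14, 4 and 4 reads in VEH and 6, 7, 4 and 6 reads in BAY, at 0 to 0.841 times that level, and Cyp1a1 lay at 0.097 to 1.40 times. The part of this background in the BAY and VEH values of these 4 genes was not tested.

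VEH replicate 1, the deepest bone library and the one with the least reading of silent genes, separated the 9 genes most clearly. In that mouse Cyp1b1 was 14.6 times the olfactory receptor level per kb, Arnt 12.01 times, Tiparp 9.27 times, Nqo1 5.95 times and Ahr 5.47 times. In the same mouse Cyp1a1 was 1.40 times, Ahrr 1.27 times and Ugt1a6a 0.778 times that level, and Cyp1a2 had no read, which allows up to 0.432 CPM. The receptor, its partner, Cyp1b1, Nqo1 and Tiparp were thus read above silent genes in cortical bone in the library where silent genes were lowest, whereas the other 4 were at or near their level there. A single mouse gives no replicate check. This library also had the highest muscle fibre sum of the VEH bone libraries, 6478 CPM as compared with 21.8 to 156 CPM in the others. The part of that RNA in these values was not tested. In the other 7 bone libraries the ratio was 0.846 to 3.74 for Cyp1b1, 0.470 to 2.92 for Arnt, 0.270 to 2.23 for Tiparp, 0.455 to 1.35 for Ahr and 0.130 to 0.684 for Nqo1. Most of those values were thus at or below the silent level, and Nqo1 was below it in all 7.

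The 5 genes that stood above the silent level in that library overlapped between the groups, and none passed the test. Ahr measured 4.46, 21.2, 11.7 and 18.2 CPM in VEH and 18.3, 16.5, 12.7 and 38.7 CPM in BAY, a difference of 0.72 (SE 0.74) that ran from 0.25 without VEH replicate 1 to 1.00 without VEH replicate 2. Arnt measured 14.8, 33.1, 38.3 and 53.1 CPM in VEH and 22.8, 19.4, 60.6 and 39.8 CPM in BAY, a difference of 0.02 (SE 0.63). Cyp1b1, which is the CYP1 enzyme typical of mesenchymal cells, measured 13.95, 46.0, 37.9 and 61.9 CPM in VEH and 21.5, 21.1, 53.0 and 58.0 CPM in BAY, a difference of -0.03 (SE 0.65). The groups overlapped for all 3, with the highest value in a BAY-treated mouse for Ahr and Arnt and in a VEH-treated mouse for Cyp1b1. Tiparp measured 13.95, 27.6, 35.7 and 42.0 CPM in VEH and 13.9, 14.5, 49.4 and 27.9 CPM in BAY, a difference of -0.27 (SE 0.65). Nqo1 measured 2.16, 5.52, 1.42 and 5.10 CPM in VEH and 1.79, 4.96, 2.55 and 3.22 CPM in BAY from 3 to 15 reads, a difference of -0.06 (SE 1.31). Each interval in bone reached beyond a change of 1 on the log2 scale in both directions for Arnt, Cyp1b1, Tiparp and Nqo1, so a change of that size could be missed here.

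**Figure D4:**
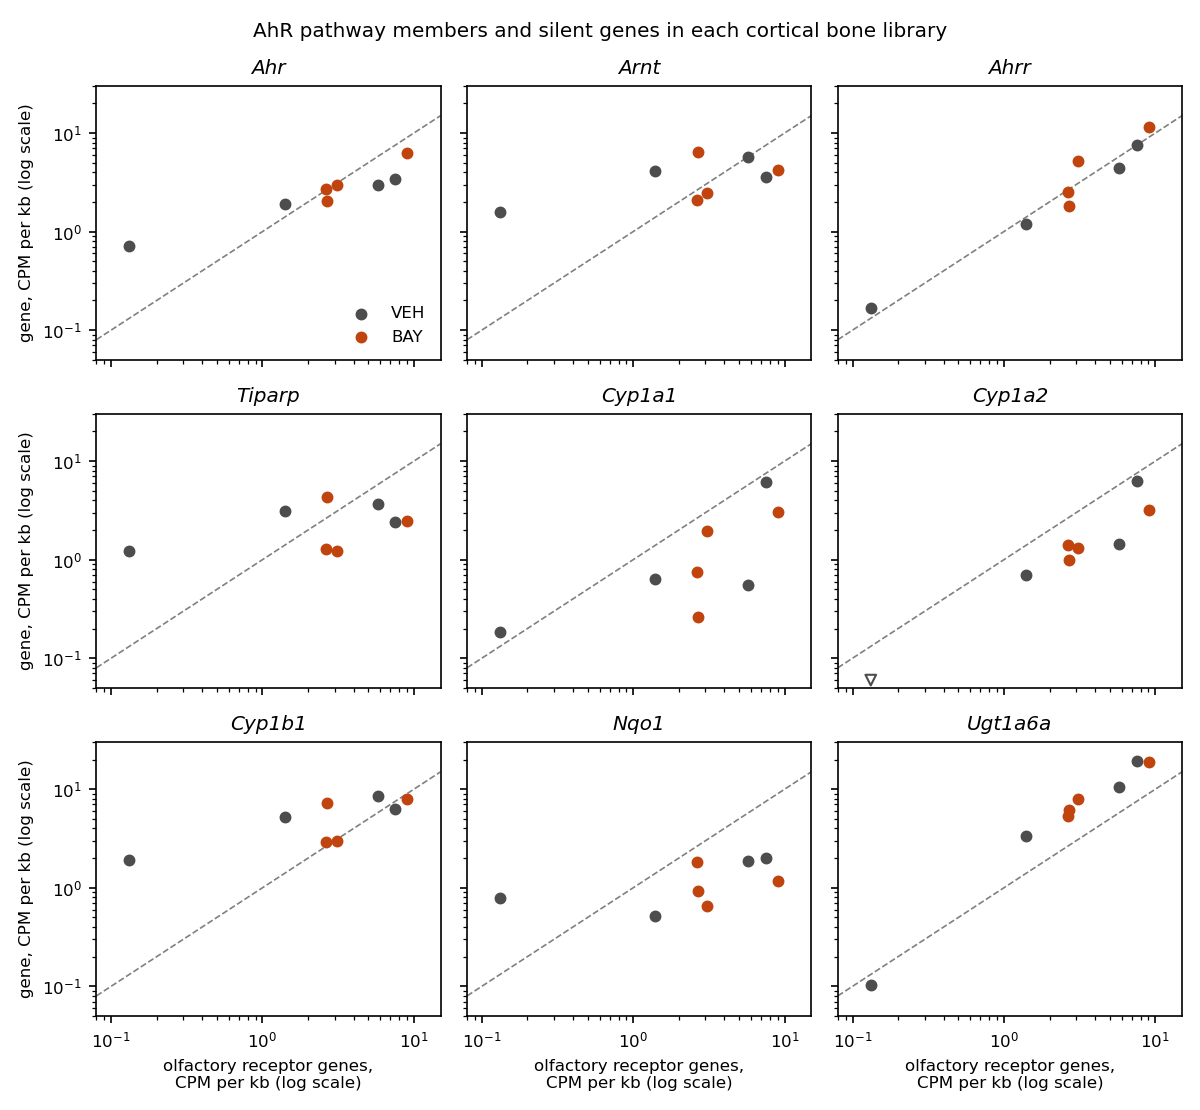
Level of each gene (y axis, CPM per kb of exon, log scale) against the mean level of 1353 olfactory receptor genes (x axis, CPM per kb, log scale) in the 8 cortical bone libraries, with the dashed line where they are equal and an open triangle at the lower edge for a value of 0. Ahrr lies along the line from 0.132 to 9.06 CPM per kb of the olfactory receptor genes and Ugt1a6a at 1.82 to 2.60 times it in all but VEH replicate 1, while Cyp1b1, Arnt, Tiparp, Nqo1 and Ahr lie well above it in VEH replicate 1 at the left.

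Levels in vehicle-treated mice were described per kb of exon to allow genes to be ordered within a tissue. In muscle, Arnt was the highest at 4.00 ± 0.554 CPM per kb, followed by Nqo1 at 1.70 ± 0.382, Tiparp at 1.00 ± 0.189, Ahr at 0.550 ± 0.177, Cyp1a1 at 0.320 ± 0.0743, Cyp1b1 at 0.0963 ± 0.0458 and Ugt1a6a at 0.0410 ± 0.0341 (SD, n = 4). Means of neighbours in this order were further apart than the sum of their SDs for Arnt and Nqo1 and for Nqo1 and Tiparp. The same held for Tiparp and Ahr and for Cyp1a1 and Cyp1b1. Ahr and Cyp1a1 lay closer than that, as did Cyp1b1 and Ugt1a6a. With the length of the longest transcript in place of all exon bases, Tiparp moved to 1.59 CPM per kb beside Nqo1 at 1.70, which ended their separation, and Arnt to 7.86. Cyp1a1 was above Cyp1b1 in every VEH-treated muscle.

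In bone the mean levels were 8.33 ± 8.55 CPM per kb for Ugt1a6a, 5.52 ± 2.76 for Cyp1b1, 3.73 ± 1.69 for Arnt, 3.36 ± 3.37 for Ahrr, 2.61 ± 1.06 for Tiparp, 2.25 ± 1.20 for Ahr, 2.11 ± 2.87 for Cyp1a2, 1.88 ± 2.84 for Cyp1a1 and 1.29 ± 0.751 for Nqo1 (SD, n = 4). No pair of neighbours in this order differed beyond their SDs, and the order includes the reading of silent genes. Without VEH replicate 2, Cyp1a1 was at 0.460, Cyp1a2 at 0.708, Ahrr at 1.94 and Ugt1a6a at 4.65 CPM per kb. With the longest transcript, Arnt was at 7.32 and Tiparp at 4.15 CPM per kb, while Ahrr was at 6.22 and Ugt1a6a at 13.5. The tables were normalized separately and the tissues extracted differently, so levels are set side by side across tissues without a test. Arnt stood at 3.73 CPM per kb in bone and 4.00 in muscle, and Cyp1b1 stood at 5.52 in bone and 0.0963 in muscle. Even in bone VEH replicate 1, the library with the lowest level of silent genes, Cyp1b1 measured 13.95 CPM, as compared with at most 0.972 CPM in any VEH-treated muscle. In that bone library Arnt measured 14.8 CPM, below the 32.6 to 42.5 CPM of VEH-treated muscle. In bone VEH replicates 2 and 4 Arnt was 0.471 and 0.985 times the silent level, so its bone mean does not show an equal level in the tissues. For Ahr the lowest bone value of 4.46 CPM was just above the highest muscle value of 4.31 CPM.

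**Figure D5:**
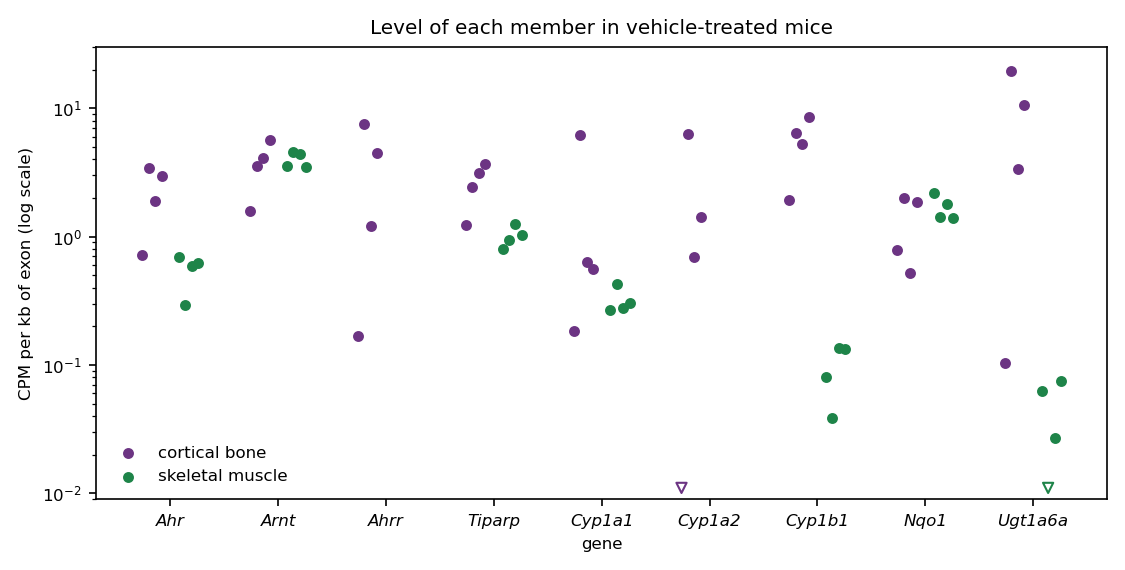
Level of each gene in the 4 VEH libraries of cortical bone and of skeletal muscle (y axis, CPM per kb of exon, log scale), 1 point per mouse, with an open triangle at the lower edge for a value of 0. Arnt overlaps between the tissues, with bone VEH replicate 1 below all muscle points. Cyp1b1 lies higher in all 4 bone libraries than in all 4 muscle libraries. Ahrr and Cyp1a2 have no muscle points because they have no row in that table.

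The other genes of the pathway were counted by list, beside 2.43% of all genes called in muscle and 0.64% in bone, so that 0 or 1 call in a list this short is not a result about the list. Of 7 genes of the receptor complex, Ahr and Arnt included, none was called in either tissue, and their median difference was 0.10 in bone and -0.08 in muscle. Hsp90ab1, a chaperone that holds AhR in the cytoplasm, measured 769 ± 100 CPM in VEH and 734 ± 170 CPM in BAY in muscle (SD, n = 4 each). Ptges3, the HSP90 co-chaperone p23, was at a difference of -0.53 on the log2 scale in muscle (15.8 ± 5.001 CPM in VEH and 10.7 ± 1.96 CPM in BAY, unadjusted P = 0.0231 by limma), short of a 2-fold change, and is named here after its values were seen. Among 12 other genes reported as induced by AhR, 7 had a row in the muscle table and 1 was called, Lpcat2, which encodes a phospholipid acyltransferase. Lpcat2 was at 0.0810 CPM in VEH and 0.152 CPM in BAY, below the value of 3 reads, with 3 VEH libraries at 0, and its difference was 0.10 with 1 CPM added. Socs2, a suppressor of cytokine signalling, was at 25.2 ± 9.23 CPM in VEH and 13.0 ± 2.19 CPM in BAY in muscle (SD, n = 4 each). Its limma difference of -0.87 had an unadjusted P = 0.00650 and an adjusted P = 0.337, and also fell short of a 2-fold change. In bone none of the 12 was called.

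Of 8 targets of NRF2, the factor that shares Nqo1 with AhR, none was called in either tissue, with a median difference of -0.03 in bone and -0.01 in muscle. Of 12 genes for proteins that are related to ARNT or can pair with it, all had a row in bone and 10 in muscle, and none was called. Epas1, the hypoxia-inducible factor common in endothelium, measured 184 ± 12.1 CPM in VEH and 201 ± 18.7 CPM in BAY in muscle (SD, n = 4 each). Sim2, a factor that pairs with ARNT, measured 12.9 ± 5.39 CPM in VEH and 19.3 ± 3.46 CPM in BAY in muscle (SD, n = 4 each). Its limma difference of 0.69 had an unadjusted P = 0.0348 and an adjusted P = 0.475, and was short of a 2-fold change. All 9 Ugt1a genes had a higher mean log2 value in BAY in bone, with a median of 0.87 on log2(CPM + 1) as compared with 0.40 over all genes. By mean CPM, Ugt1a6b was lower in BAY (4.65 in VEH and 4.44 in BAY), and on the log2 scale Ugt1a6a turned lower without VEH replicate 1 (-0.066). The genes share exons, none was called on the deposited values, 1 was called with 1 CPM added (Ugt1a10, 1.81) and 4 by voom, and the lowest library for Ugt1a6a was VEH replicate 1, where silent genes were also lowest.

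The genes whose log2 values most resembled each member over the 8 libraries of a tissue were found by Pearson correlation among genes averaging 1 CPM or more, and are given as a description. In muscle, out of 13170 genes, Toe1, Dapp1 and Vopp1 came nearest to Ahr (r of 0.95 to 0.90), Exoc8, Arhgap6 and Fbxo7 to Arnt (0.98 to 0.97), Pum3, Slc35a1 and Wdr35 to Tiparp (0.99 to 0.96) and Gbp6, Spag5 and Gtf2a2 to Nqo1 (0.91 each). In bone, out of 35016 genes, the nearest to Ugt1a6a were Igf2bp1, A730046J19Rik and the olfactory receptor gene Olfr548-ps1 (1.00 each) and those to Ahrr were Gm42892, Dgkk and Epb41l4a (1.00 each). None is given for Cyp1a2, which was at 0 in 1 library, where the offset fixes the correlation with any gene that is also at 0 there. Those to Cyp1b1 were Ubap2l, Sec11a and Tor1a (1.00 to 0.99), those to Ahr were Cinp, Rps27 and Gm37770 (0.99 each), and those to Tiparp were Stk17b, Gm48048 and Cdk9 (0.99 each). Cyp1a1 was nearest to Gm14612, Gm12138 and Wbp1 (0.99 to 0.98), and Nqo1 to Gm9857, 2810471M01Rik and Gm12286 (0.96 to 0.95). Each named gene is among the top of many searched over only 8 libraries, a choice that by itself gives high r, and none was tested. Points of a tissue share a table and its normalization, and differences of depth and of silent-gene level between bone libraries are part of these values.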

How the data were processed

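RNA was sequenced from cortical bone and TA muscle of VEH- and BAY-treated mice. Per the labels and the methods of the study, the authors aligned reads with STAR (2.7.8a) to mm39, quantified genes in Partek, scaled counts to CPM and deposited log2 of CPM plus an offset, 1 table per tissue. The offset, read from the lowest value, was 0.0001 in bone and 0.0004 in muscle. Reads were recovered from the steps between low values: 86.3% to 88.4% of values up to 50 reads in bone and 81.3% to 83.4% in muscle were whole to within 0.02. All 16 columns were matched to a library by its name. For muscle VEH replicate 3, the column name carried an added word for replacement, and the match rests on the rest of the name and the title. The lowest total of a gene was 5 reads in both tables.

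In each tissue the BAY and VEH groups were compared by limma-trend (limma 3.58.1, R 4.3.3) fitted to the deposited log2 values, two-sided, without covariates or filter, and P values were adjusted over all genes of the table by the Benjamini-Hochberg method. Calls took an unadjusted P below 0.05 and a fold change of at least 2. The methods of the study name limma-voom, which was run on the recovered reads as an alternative. Single genes were also compared by exact permutation of the 8 libraries (70 assignments). The tissue interaction used log2(CPM + 1). Scripts were tested on simulated data. Exon lengths and starts came from GENCODE M39 on GRCm39, which matched 98.9% of genes in bone and 99.4% in muscle. Python (3.11.15), numpy (2.4.6), pandas (2.3.3), scipy (1.17.1) and matplotlib (3.10.9) were used.

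The 9 genes, the gene lists and the tests were chosen with earlier results of these data known. Genes named beside the 9 were those of the lists that were called or were among the 4 highest of their list by mean CPM, with Ptges3 named after its values were seen, and the 3 genes most like each member, of which some are not reported here. The libraries of a group were taken as separate mice. The labels do not say whether the bone and muscle of one number came from the same mouse, and the interaction treats all 16 libraries as independent. Alternatives were 1 or 0.1 CPM added before taking log2, leaving out genes with means below 1 CPM, median centring, no trend, voom, array weights, a replicate block, lengths of the longest transcript and each mouse left out. The other data types of the study were not analysed here.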

Additional observations from a re-analysis of the deposited data

Results flagged for a closer look

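Among 32 sets of 4 mice (1 gene, 1 tissue and 1 treatment each), 2 had a mouse far from the other 3, judged by its gap to the nearest divided by the range of the set. Chance alone flags about 1 in 20 such sets. Cyp1a1 in cortical bone was at 23.9 CPM, from 26 reads, in VEH replicate 2, and at 0.719 to 2.48 CPM in the other VEH-treated mice. That library also had the second highest level of olfactory receptor genes in bone, at 7.52 CPM per kb, and the part of that level in the value was not tested. Ugt1a6a in skeletal muscle was at 0.489 CPM in BAY replicate 2 and at 0.129 to 0.180 CPM in the other BAY-treated mice. This value rests on 3 reads.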

How the results depend on the processing

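In skeletal muscle, Cyp1a1 stayed lower in BAY under each alternative that kept it, from -1.53 to -1.13 on the log2 scale with 1 mouse left out, and lost its call with 1 CPM added (-0.59), so that 0 members were called. A filter at a mean of 1 CPM removed Cyp1a1 and also left 0 called. With 1 mouse left out, 0 to 1 members were called in muscle, 0 without VEH replicate 2 or VEH replicate 4. In cortical bone 0 members were called with any mouse left out, and 2 by voom on the recovered reads. The members whose effect differed between tissues numbered 0 to 1 with 1 mouse left out. The number of all genes called in bone was 249 by limma-trend on the deposited values, 82 with the 1 CPM filter, 408 without a trend, 443 with median centring, 901 with array weights, 1433 by voom and 115 to 1116 with 1 mouse left out, the last without VEH replicate 2. In muscle it was 510 by limma-trend, 52 with 1 CPM added, 193 with the 1 CPM filter and 448 to 567 with 1 mouse left out.

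Directions of members that were not called turned under some settings, and the cause was not tested. In bone, median centring gave -0.13 for Ahr, -0.83 for Arnt and -0.47 for Cyp1a1. Array weights in bone gave -0.37 for Arnt, -0.022 for Ahrr, -1.26 for Cyp1a1, -0.69 for Cyp1a2 and -0.39 for Ugt1a6a, and voom gave 0.17 for Cyp1b1 and 0.13 for Nqo1. In muscle, median centring gave -0.041 for Arnt. For the muscle effect minus the bone effect, it gave 0.25 for Arnt, 0.20 for Tiparp and 0.0018 for Cyp1b1. With 1 mouse left out, the bone differences ran from -0.34 to 0.27 for Arnt, from -0.33 to 1.36 for Cyp1a1, from -0.24 to 5.42 for Cyp1a2, from -0.47 to 0.24 for Cyp1b1, from -0.43 to 0.23 for Nqo1 and from -0.066 to 2.45 for Ugt1a6a. Those in muscle ran from -0.43 to 0.0061 for Ahr, from -0.074 to 0.093 for Arnt, from -0.028 to 0.25 for Nqo1 and from -0.49 to 2.86 for Ugt1a6a. The differences between tissues ran from -0.25 to 0.34 for Arnt, from -0.29 to 0.29 for Tiparp, from -0.53 to 0.16 for Cyp1b1, from -0.071 to 0.41 for Nqo1 and from -1.96 to 0.080 for Ugt1a6a. Without a change of sign, the range was 0.24 to 2.07 for Ahrr and -0.63 to -0.023 for Tiparp in bone, -4.23 to -0.45 for Cyp1b1 in muscle, and -1.04 to -0.36 for Ahr and -1.61 to -0.33 for Cyp1a1 between tissues. Calls in the gene lists were recomputed under the same settings after seeing the data. In bone, the muscle fibre genes called numbered 0 on the deposited values, 6 with 1 CPM added, 5 with 0.1 CPM added, with array weights and with the replicate block, and 0 to 6 with 1 mouse left out. The bone cell genes called numbered 3 with 1 CPM added and 3 with the block. Of the genes related to ARNT, 2 were called in bone by voom. In muscle, 1 NRF2 target, Hmox1, was called lower with median centring and without BAY replicate 3, and Socs2 was called lower without VEH replicate 1. Reads were few for Cyp1b1 (0 to 9 per library) and Ugt1a6a (0 to 3.52) in muscle. In bone, Cyp1a2 had 0 reads in the deepest library and 4 to 14 in the others.

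The replicate numbers of the groups belong to different mice, and same-numbered libraries did not deviate together (correlations from -0.11 to 0.19 in bone and from -0.09 to 0.01 in muscle). Of the 8 libraries of a tissue, 3 in bone and 0 in muscle correlated best with the library of the same number. With the replicate number as a block, 0 members were called in bone and 1 in muscle, among 305 and 489 genes, and Cyp1a1 in muscle kept its difference of -1.38 with an unadjusted P = 0.0480 by limma. The block changed no call of a member.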
